A study of Homo sapiens with 12 samples.

Results

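Sterol and fatty acid synthesis was followed through 39 genes that the SREBP transcription factors control or that regulate, take up or export what these factors control, out of 28278 gene symbols in the count table. The genes are listed by name, from knowledge of the pathway, and were chosen with earlier results of these data known. They comprise 18 mevalonate and sterol enzymes, 5 SREBP regulators, 7 genes of sterol uptake, trafficking and efflux, and 9 genes of fatty acid and lipid synthesis. All 39 passed the filter on low counts in every comparison. RNA was measured in motor neurons derived from the human embryonic stem cell line WA09-Islet1-GFP, which is of wild-type genotype and makes GFP where the motor neuron transcription factor Islet1 is on. Cultures received cis-chlordane, an organochlorine pesticide, or the same volume of the solvent DMSO for 16 hours, after which FACS divided the cells by their GFP signal. The 4 groups of 3 libraries were control GFP-positive, treated GFP-positive, control GFP-negative and treated GFP-negative cells. The labels give a dose of 10 µM, whereas the methods of the study give another dose for this experiment. Per the study's methods a biological replicate is an independent thaw of frozen motor neurons, so the 3 replicates of each group are of 1 cell line. The methods say in general that experiments drew on more than a single differentiation, and do not say which library came from which. The titles of the treated libraries hold both the words untreated and treated, and their treatment entry was followed.

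The libraries held 23414935 to 38347050 gene counts each (median 31553596). The 10 motor neuron markers summed to 2327 to 2909 CPM (counts scaled to library depth) in control GFP-positive and to 424 to 461 CPM in control GFP-negative libraries, so both fractions held motor neuron transcripts and the GFP-positive fraction held more. In treated cells the same sum was 772 to 1145 CPM in GFP-positive and 159 to 199 CPM in GFP-negative libraries, and ISL1 itself fell by 2.39 on the log2 scale in GFP-positive cells. All 8 ER stress markers, among them HSPA5 and DDIT3, rose in both fractions, with median log2 fold changes of 3.17 and 3.36. Cycling cell markers summed to 59.3 to 91.8 CPM in control GFP-positive and 459 to 604 CPM in control GFP-negative libraries, and to 32.5 to 37.1 CPM and 151 to 203 CPM after treatment. In GFP-positive cells the sums of the other marker lists were also lower in all 3 treated libraries than in the controls, at 5719 to 7569 against 11901 to 15291 CPM for neurons, 1153 to 1351 against 1793 to 2032 CPM for neural progenitors, 48.9 to 60.8 against 155 to 171 CPM for pluripotent cells, 16.2 to 27.8 against 79.8 to 110 CPM for mesenchyme and endothelium, 3.06 to 5.40 against 11.9 to 16.7 CPM for astroglia, and 2.5 to 4.42 against 9.25 to 11.5 CPM for the oligodendrocyte lineage. Single markers did not all follow these sums. At an adjusted p under 0.05 in GFP-positive cells, 4 of 7 neuron markers fell and 2 rose. Of 8 tested neural progenitor markers 4 fell and 2 rose, where 24.4% of all genes fell and 26.5% rose. In these bulk libraries fewer cells of a type and less RNA per cell cannot be told apart, and the part of cell composition and ER stress in the results that follow was not tested.

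SREBP1 and SREBP2, the products of SREBF1 and SREBF2, are made as membrane proteins of the endoplasmic reticulum. When sterols are low, SCAP escorts them to the Golgi, where proteases release the active factors. When sterols are high, INSIG proteins hold SCAP and its cargo back. SREBP2 is best known for inducing the mevalonate and cholesterol pathway, and SREBP1 for inducing fatty acid synthesis. Loaded cells export cholesterol through ABCA1 and ABCG1, whose genes are targets of the sterol sensing LXR receptors, and lysosomes release it through NPC1 and NPC2. Neurons make sterols for membranes and also take up lipoproteins.

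Promoters are shown for some of the sterol enzymes and SREBP regulators. They are an early mevalonate enzyme (HMGCS1), the kinase that acts on mevalonate (MVK) and a late sterol enzyme (MSMO1). The others are the factor SREBF2 itself and the pair INSIG1 and INSIG2, which moved in opposite directions. None is shown for uptake, trafficking and efflux or for fatty acid and lipid synthesis. Each sequence is the 250 bases before the RefSeq transcription start (GRCh38.p14), written 5′ to 3′ on the gene's own strand, with capitals at CCAAT, at its reverse complement ATTGG and at the SRE-like letters TCACNCCAC.
HMGCS1, chr5:43313413-43313662, minus strand: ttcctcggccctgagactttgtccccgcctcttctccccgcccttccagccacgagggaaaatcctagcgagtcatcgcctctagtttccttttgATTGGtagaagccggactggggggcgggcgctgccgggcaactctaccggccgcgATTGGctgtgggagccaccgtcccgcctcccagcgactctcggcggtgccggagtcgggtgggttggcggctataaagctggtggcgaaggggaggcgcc
MVK, chr12:109573544-109573793, plus strand: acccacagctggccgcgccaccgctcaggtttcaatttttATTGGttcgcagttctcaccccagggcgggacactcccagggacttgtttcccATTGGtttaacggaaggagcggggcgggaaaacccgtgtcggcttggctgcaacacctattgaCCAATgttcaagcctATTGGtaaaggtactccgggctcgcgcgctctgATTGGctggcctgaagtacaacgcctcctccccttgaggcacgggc
MSMO1, chr4:165327419-165327668, plus strand: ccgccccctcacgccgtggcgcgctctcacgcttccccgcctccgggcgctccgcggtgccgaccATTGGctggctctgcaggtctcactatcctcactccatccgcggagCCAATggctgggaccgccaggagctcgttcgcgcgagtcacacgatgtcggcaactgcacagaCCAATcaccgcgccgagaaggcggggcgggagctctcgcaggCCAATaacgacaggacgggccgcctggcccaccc
SREBF2, chr22:41832855-41833104, plus strand: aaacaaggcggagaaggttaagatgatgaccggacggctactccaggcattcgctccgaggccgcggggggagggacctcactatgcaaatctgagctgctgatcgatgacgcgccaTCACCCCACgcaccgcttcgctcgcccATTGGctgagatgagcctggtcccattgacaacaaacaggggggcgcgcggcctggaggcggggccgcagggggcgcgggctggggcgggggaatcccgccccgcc
INSIG1, chr7:155297628-155297877, plus strand: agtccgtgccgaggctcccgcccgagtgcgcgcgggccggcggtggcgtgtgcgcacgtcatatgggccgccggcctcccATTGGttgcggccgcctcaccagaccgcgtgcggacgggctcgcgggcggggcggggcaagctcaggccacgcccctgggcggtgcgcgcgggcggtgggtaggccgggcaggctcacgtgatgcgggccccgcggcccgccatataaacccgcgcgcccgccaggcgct
INSIG2, chr2:118088221-118088470, plus strand: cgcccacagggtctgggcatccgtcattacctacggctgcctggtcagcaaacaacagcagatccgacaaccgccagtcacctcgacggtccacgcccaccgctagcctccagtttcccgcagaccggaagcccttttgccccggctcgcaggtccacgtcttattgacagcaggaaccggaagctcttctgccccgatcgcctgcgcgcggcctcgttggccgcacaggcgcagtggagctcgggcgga

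The RefSeq table held a promoter, from 250 bases before to 50 after the start, for 34 of the 39 members. CCAAT on either strand occurred in 20 of these 34 (58.8%), against 35.7% of 27305 promoters of all genes. By role these were 12 of the 18 listed mevalonate and sterol enzymes, 2 of 5 regulators, 3 of 7 genes of uptake, trafficking and efflux, and 3 of 9 of fatty acid and lipid synthesis. The members without a promoter were the sterol enzymes ACAT2, FDFT1 and SQLE, the efflux gene ABCG1, and FASN. Most of the 20 were thus sterol enzymes. PMVK, IDI1 and CYP51A1 were the sterol enzymes with a promoter but without CCAAT. The SRE-like letters TCACNCCAC occurred in 1 member, SREBF2, and in 1.15% of all promoters. The E-box CACGTG, which is the same on both strands, occurred in 5 members (14.7%) and in 7.44% of all promoters. The amino acid response element letters TGATGNAA were in 0 member promoters and in 3.67% of all, and the ER stress element (ERSE), whose first letters overlap CCAAT, in 0 and 0.0806%. INSIG2 had neither CCAAT nor the SRE-like letters in this window. These are letter matches within a short window.

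Per length, the highest levels among the members in control GFP-positive cells were those of FASN (247 CPM per kb of exon), SCD (244 CPM per kb), FDFT1 (165 CPM per kb), ACLY (163 CPM per kb) and SREBF2 (155 CPM per kb). The lowest were ACACA (0.244 CPM per kb) and ABCG1 (0.958 CPM per kb).

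To ask how the pesticide changes expression, treated libraries were set against the controls of the same sort fraction. In GFP-positive cells 28 of the 39 members fell and 7 rose at an adjusted p under 0.05 (edgeR quasi-likelihood F-test with Benjamini-Hochberg adjustment over all genes, as for every adjusted p here unless another tool is named), where 24.4% of all genes fell and 26.5% rose. With a fold change of at least 2 in addition, the rule for a differentially expressed gene (DEG), 22 members were downregulated and 3 were upregulated, against 11.2% and 12.8% of all genes. The median log2 fold change of the members was -1.15, and that of all genes tested was 0.03. In GFP-negative cells 19 members fell and 4 rose, against 16.2% and 15.3% of all genes, and 13 were downregulated and 3 upregulated DEGs, against 9.75% and 8.59%. Here the median was -0.69 for the members and -0.01 for all genes. All 3 treated GFP-positive libraries lay outside the range of the 3 controls for 36 of the 39 members, 29 below and 7 above (92.3%, against 57.5% of all genes), and in GFP-negative cells 28 did, 20 below and 8 above (71.8%, against 46.6%).

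**Figure D1:**
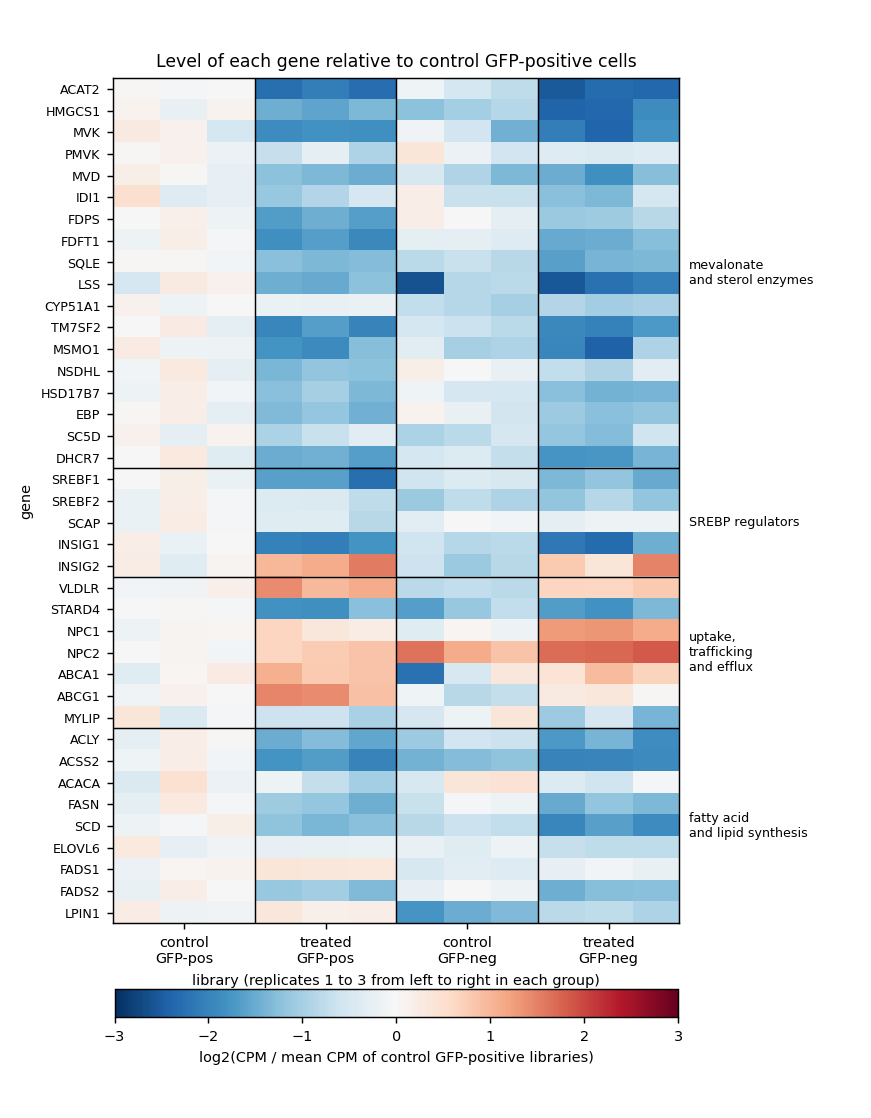
Level of each of the 39 genes in each of the 12 libraries, as log2 of its CPM over the mean CPM of the control GFP-positive libraries, with genes in rows by role and libraries in columns by group. Blue marks lower and red higher levels; 28 members fell and 7 rose in treated GFP-positive cells, and the colour scale ends at -3 and 3.

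The enzymes that build cholesterol from acetyl-CoA fell nearly throughout in GFP-positive cells. There 17 of 18 mevalonate and sterol enzymes fell, 14 of them as DEGs, and none rose, with a median log2 fold change of -1.30. In GFP-negative cells 11 fell, 9 of them as DEGs, and 7 did not pass, with a median of -1.0. Their summed level was 4646, 4706 and 4180 CPM in the control and 1618, 1694 and 1619 CPM in the treated GFP-positive libraries. In GFP-negative libraries it was 3451, 3108 and 2761 CPM in controls and 1488, 1445 and 1813 CPM after treatment. The control and treated libraries did not overlap in either fraction.

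ACAT2, on chromosome 6 (hg38, 159762045 to 159779112), encodes the cytosolic thiolase that joins the first acetyl-CoA units. Its level was 351, 329 and 343 CPM in control and 71.6, 81.1 and 70.1 CPM in treated GFP-positive libraries. In GFP-negative libraries it was 312, 235 and 203 CPM in controls and 59.4, 68.4 and 66.2 CPM after treatment. The treated libraries were far below the controls in both fractions, with log2 fold changes of -2.13 ± 0.16 (SE, adjusted p = 2.69e-13) and -1.98 ± 0.19 (SE, adjusted p = 0.000101), the largest falls among the members in each. HMGCS1, which encodes the cytosolic HMG-CoA synthase, stood at 669, 532 and 676 CPM in control and 225, 211 and 247 CPM in treated GFP-positive libraries. In GFP-negative libraries it stood at 268, 311 and 345 CPM and then at 118, 122 and 170 CPM. Neither fraction showed overlap, and the log2 fold changes were -1.39 ± 0.16 (adjusted p = 6.99e-09) and -1.20 ± 0.19 (adjusted p = 0.00126).

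Of the enzymes that turn mevalonate into isoprenoid units, MVK (mevalonate kinase) fell by 1.78 and 1.49 on the log2 scale in GFP-positive and GFP-negative cells. Its control libraries were uneven, at 157, 141 and 89.8 CPM in GFP-positive and 120, 86.7 and 47.6 CPM in GFP-negative cells, while the treated libraries held 34.7, 36.6 and 36.3 CPM and 30.5, 25.0 and 36.7 CPM. MVD, which decarboxylates mevalonate diphosphate, had 616, 558 and 460 CPM in control and 234, 214 and 193 CPM in treated GFP-positive libraries, a fall of 1.28 (SE 0.16, adjusted p = 4.07e-08; 0.86 and under 2-fold with a trend in GC content removed). In GFP-negative cells the MVD libraries overlapped, at 393, 292 and 215 CPM against 195, 152 and 226 CPM, and the difference did not pass the test (log2 fold change -0.68, adjusted p = 0.0522; -0.87 and adjusted p = 0.0075 without control replicate 3). It passed with DESeq2, with library size alone, without the filter, with at least 10 counts in every library and in 1 fit of all 12 libraries, at adjusted p from 0.0191 to 0.0399. PMVK (phosphomevalonate kinase) and IDI1 (isopentenyl diphosphate isomerase) fell by less than 2-fold in GFP-positive cells, by 0.54 and 0.75 on the log2 scale, and did not pass in GFP-negative cells (-0.35 and -0.69). FDPS, the farnesyl diphosphate synthase, fell by 1.53 and 1.01.

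FDFT1, the squalene synthase that commits farnesyl units to sterols, had 756, 949 and 808 CPM in control and 234, 265 and 218 CPM in treated GFP-positive libraries. In GFP-negative libraries it had 688, 683 and 642 CPM and then 294, 298 and 347 CPM. The groups were well apart in both fractions (log2 fold change -1.74 ± 0.16, adjusted p = 4.89e-11, and -1.12 ± 0.14, adjusted p = 0.000443). SQLE, the squalene epoxidase, fell by 1.23 and 0.71, the latter short of 2-fold. LSS, which closes squalene epoxide into lanosterol, fell by 1.32 in GFP-positive cells, from 32.0, 53.9 and 49.2 CPM to 16.2, 15.9 and 19.3 CPM. In GFP-negative controls 1 library stood apart for LSS, replicate 1 with 7.39 CPM beside 24.9 and 25.7 CPM, and the treated libraries held 7.70, 9.47 and 10.9 CPM. The GFP-negative difference was -1.07 with an adjusted p of 0.0692, and -1.46 with an adjusted p of 0.000703 when that control was left out. With all libraries kept it passed with DESeq2 (adjusted p = 0.0196) and in 1 fit of all 12 libraries (0.0253).

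Among the enzymes that turn lanosterol into cholesterol, the sterol reductases TM7SF2 (-1.79 and -1.26) and DHCR7 (-1.45 and -1.11), the isomerase EBP (-1.23 and -1.0) and the ketoreductase HSD17B7 (-1.12 and -1.01) were downregulated DEGs in both fractions. The treated GFP-positive libraries of TM7SF2 held 69.3, 86.1 and 66.5 CPM, against 269, 317 and 219 CPM in controls. MSMO1, the methylsterol oxidase, fell by 1.56 in GFP-positive cells, from 121, 91.6 and 90.9 CPM to 29.2, 26.8 and 41.5 CPM. In GFP-negative cells treated replicate 3 of MSMO1 (53.0 CPM) lay within the control range of 50.3 to 81.4 CPM, while replicates 1 and 2 (26.1 and 18.9 CPM) lay below it. That difference was -0.94 (adjusted p = 0.0657), and -1.49 (adjusted p = 0.0102) without treated replicate 3. It also passed without control replicate 3 (adjusted p = 0.0437). With all libraries kept it passed with DESeq2 (adjusted p = 0.0201), with library size alone (0.0423) and in 1 fit of all 12 libraries (0.0284). A replicate block (0.04255) and removal of the GC trend (0.0311) gave the same call. NSDHL, which works with MSMO1 in removing methyl groups, fell by 1.19 and 0.65. SC5D, a sterol desaturase, fell by 0.55 in GFP-positive cells and did not pass in GFP-negative cells (-0.27, adjusted p = 0.379; -0.55 and adjusted p = 0.0415 with the GC trend removed).

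CYP51A1, the lanosterol demethylase, was the exception among the 18 in GFP-positive cells. It had 174, 141 and 160 CPM in control and 137, 137 and 139 CPM in treated GFP-positive libraries, so the treated libraries were just below the lowest control. In GFP-negative cells it had 95.1, 88.0 and 79.8 CPM against 86.1, 76.5 and 81.1 CPM, which overlapped. The log2 fold changes were -0.13 ± 0.16 (adjusted p = 0.495) and -0.13 ± 0.15 (adjusted p = 0.53). In the annotation used here, which is not the authors', 68.2% of the exon bases of CYP51A1 also belong to another gene on the same strand. For EBP the share is 36.4%. Reads of these 2 genes could thus be shared or dropped in counting, and any effect on their fold changes was not tested. With a trend in GC content removed, CYP51A1 fell by 0.51 in GFP-positive cells (adjusted p = 0.00254).

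The falls of PMVK, IDI1 and SC5D in GFP-positive cells depended on single libraries and on the GC trend. With that trend removed PMVK did not pass (-0.25, adjusted p = 0.177), while IDI1 and SC5D fell by 1.14 and 1.08 on the log2 scale, over 2-fold. PMVK did not pass without control replicate 2 (adjusted p = 0.0758) or without replicate 1 or 3 of the treated libraries (0.0514 and 0.0606), IDI1 without control replicate 1 (0.0909), and SC5D without control replicate 1 or treated replicate 1 (0.0573 and 0.0852). In GFP-negative cells the DEG calls of FDPS, HSD17B7 and EBP sat at the 2-fold limit, and with the GC trend removed FDPS, EBP, TM7SF2 and DHCR7 fell by 0.84, 0.87, 0.98 and 0.91. NSDHL passed there only with all libraries or without control or treated replicate 3, its adjusted p rising to 0.101 without treated replicate 1.

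**Figure D2:**
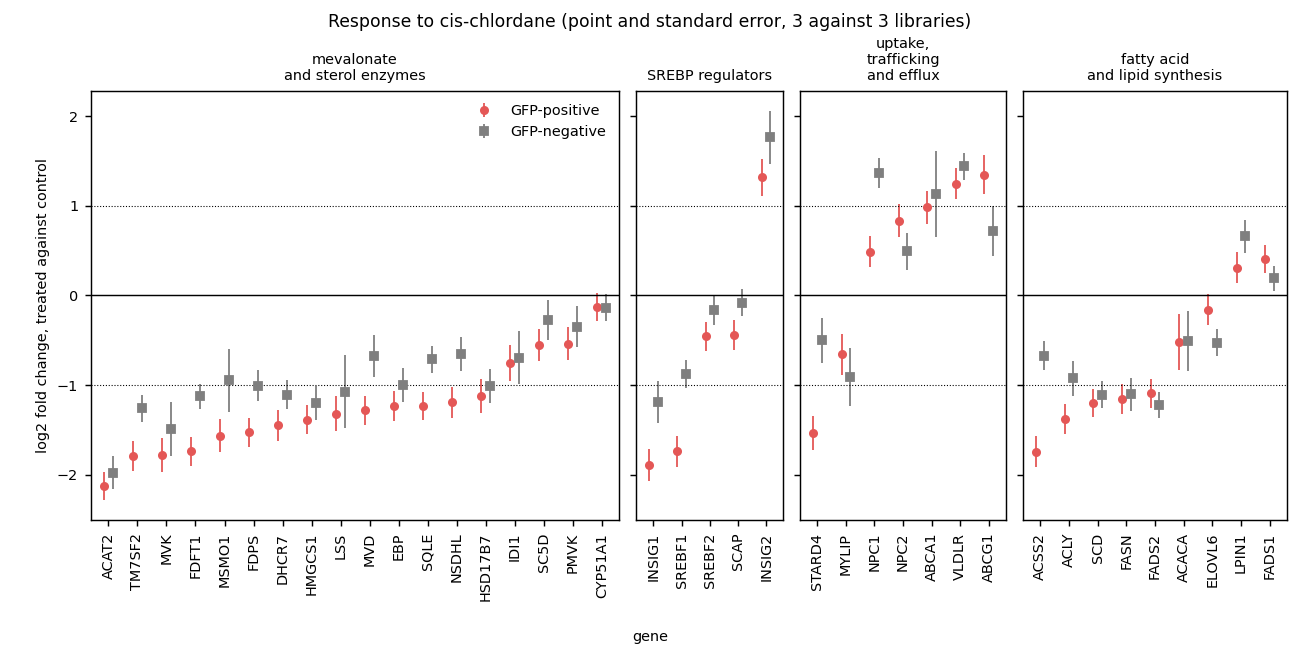
Log2 fold change of treated against control libraries for each gene (vertical axis), with its standard error, in GFP-positive (red circles) and GFP-negative cells (grey squares), 3 against 3 libraries each. Genes are ordered within each role by the GFP-positive value, and dotted lines mark a 2-fold change; among the 18 sterol enzymes the values run from -2.13 for ACAT2 to -0.13 for CYP51A1 in GFP-positive cells.

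The regulators moved apart from each other. INSIG1, itself a known target of SREBP, had 85.1, 64.6 and 73.7 CPM in control and 18.2, 17.5 and 21.5 CPM in treated GFP-positive libraries. In GFP-negative libraries it had 49.0, 41.1 and 42.3 CPM and then 16.9, 15.1 and 27.1 CPM. All treated libraries were below all controls of their fraction, with log2 fold changes of -1.89 ± 0.18 (adjusted p = 9.64e-11) and -1.19 ± 0.23 (adjusted p = 0.00429). INSIG2, the other retention protein, went the opposite way, from 14.5, 9.76 and 13.3 CPM to 25.0, 27.2 and 37.0 CPM in GFP-positive cells. In GFP-negative cells it went from 8.15, 5.76 and 7.09 CPM to 21.5, 16.1 and 35.2 CPM. Its log2 fold changes were 1.32 ± 0.21 (adjusted p = 1.9e-06) and 1.77 ± 0.30 (adjusted p = 0.00189), without overlap between groups. With the GC trend removed the GFP-positive value was 0.77 (adjusted p = 0.000836), under 2-fold.

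SREBF1 had 165, 187 and 146 CPM in control and 54, 53.7 and 34.5 CPM in treated GFP-positive libraries, and 110, 125 and 119 CPM and then 65.0, 73.7 and 58.2 CPM in GFP-negative libraries. It fell by 1.74 (SE 0.18, adjusted p = 4.18e-10) and by 0.88 (SE 0.16, adjusted p = 0.00258). SREBF2 stood at 1095, 1444 and 1205 CPM in control and at 938, 926 and 735 CPM in treated GFP-positive libraries, a fall of 0.45 (SE 0.16, adjusted p = 0.018). In GFP-negative cells SREBF2 was at 578, 741 and 652 CPM against 550, 690 and 548 CPM, which overlapped (-0.16, adjusted p = 0.48). SCAP fell by 0.44 in GFP-positive cells (adjusted p = 0.0254) and did not pass in GFP-negative cells (-0.08, adjusted p = 0.718). The 2 small falls did not pass when either control replicate 2 or treated replicate 3 was left out (adjusted p = 0.0775 and 0.111 for SREBF2, 0.137 and 0.157 for SCAP), or with the GC trend removed (0.18 and 0.623).

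Genes of uptake, trafficking and efflux did not move as 1 group. In GFP-positive cells 5 of 7 rose and 2 fell, with a median log2 fold change of 0.83, and in GFP-negative cells 2 rose and none fell, with a median of 0.72. VLDLR, a receptor for lipoproteins and reelin, had 44, 43.5 and 51.8 CPM in control and 123, 90.5 and 101 CPM in treated GFP-positive libraries, and 26.5, 27.9 and 26.5 CPM and then 72.3, 71.2 and 80.0 CPM in GFP-negative libraries. The treated libraries were all higher, with log2 fold changes of 1.25 ± 0.17 (adjusted p = 1.71e-07) and 1.44 ± 0.15 (adjusted p = 0.00016). With the GC trend removed VLDLR rose by 0.94 in GFP-positive cells, just under 2-fold.

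NPC1, the membrane protein through which cholesterol leaves lysosomes, had 40.2, 47.5 and 46.6 CPM in control and 70.5, 56.9 and 52.0 CPM in treated GFP-positive libraries. In GFP-negative libraries it had 35, 46.3 and 40 CPM and then 108, 113 and 96.4 CPM. The rise was 0.49 ± 0.17 (adjusted p = 0.0177) in GFP-positive and 1.36 ± 0.17 (adjusted p = 0.00038) in GFP-negative cells. NPC2, its soluble partner, rose by 0.83 in GFP-positive cells and did not pass in GFP-negative cells (0.49, adjusted p = 0.097; 0.74 and adjusted p = 0.00931 without control replicate 1). The GFP-negative rise of NPC2 also passed in 1 fit of all 12 libraries (adjusted p = 0.035). In GFP-positive cells NPC1 did not pass without control replicate 1 (adjusted p = 0.0965) or treated replicate 1 (adjusted p = 0.168).

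The efflux transporters ABCA1 and ABCG1 both rose in GFP-positive cells. ABCA1 went from 24.3, 32.2 and 36.9 CPM to 65.0, 53.9 and 56.5 CPM (log2 fold change 0.98 ± 0.18, adjusted p = 2.5e-05), and ABCG1 from 5.44, 6.36 and 5.79 CPM to 16.3, 15.8 and 10.7 CPM (1.35 ± 0.22, adjusted p = 3.11e-06). In GFP-negative controls ABCA1 ranged from 6.6 CPM in replicate 1 through 22.4 CPM to 39.1 CPM in replicate 3, and the treated libraries held 41.6, 60.5 and 49.7 CPM. That difference did not pass (1.13 ± 0.48, adjusted p = 0.103), and it was 1.78 (adjusted p = 0.00647) without control replicate 3. With all libraries kept it passed in 1 fit of all 12 libraries (adjusted p = 0.03285) and with a replicate block (0.0345). ABCG1 in GFP-negative cells was 0.72 higher (adjusted p = 0.0767), and 0.97 higher (adjusted p = 0.023) without control replicate 1. With all libraries kept ABCG1 passed with DESeq2 (adjusted p = 0.0377), in 1 fit of all 12 libraries (0.0211) and with the GC trend removed (0.0346). The ABCA1 rise in GFP-positive cells did not pass when all 12 libraries shared 1 fit (adjusted p = 0.0739).

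The other members of this group were lower. STARD4, a cytosolic sterol carrier and known SREBP target, fell in GFP-positive cells from 49.9, 50.8 and 48.3 CPM to 14.1, 13.9 and 20.9 CPM (-1.53 ± 0.19, adjusted p = 2.88e-08). In GFP-negative cells its libraries overlapped, at 15.9, 22.6 and 29.7 CPM against 15.7, 14.0 and 19.4 CPM (-0.50, adjusted p = 0.157). That difference was -0.70 (adjusted p = 0.0276) without control replicate 1 and -0.80 (adjusted p = 0.00542) with the GC trend removed. MYLIP, the ubiquitin ligase that marks lipoprotein receptors for degradation, fell by 0.66 in GFP-positive cells (adjusted p = 0.0182; 0.187 without control replicate 1) at 4.92 to 12.5 CPM. In GFP-negative cells MYLIP was 0.91 lower (adjusted p = 0.0548). It was 1.09 lower (adjusted p = 0.025) without control replicate 1, and 1.19 lower (adjusted p = 0.0348) without treated replicate 2. With all libraries kept it passed with DESeq2 (adjusted p = 0.0187) and in 1 fit of all 12 libraries (0.0232). It also passed with at least 10 counts in every library (0.046) and with the GC trend removed (0.0341).

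**Figure D3:**
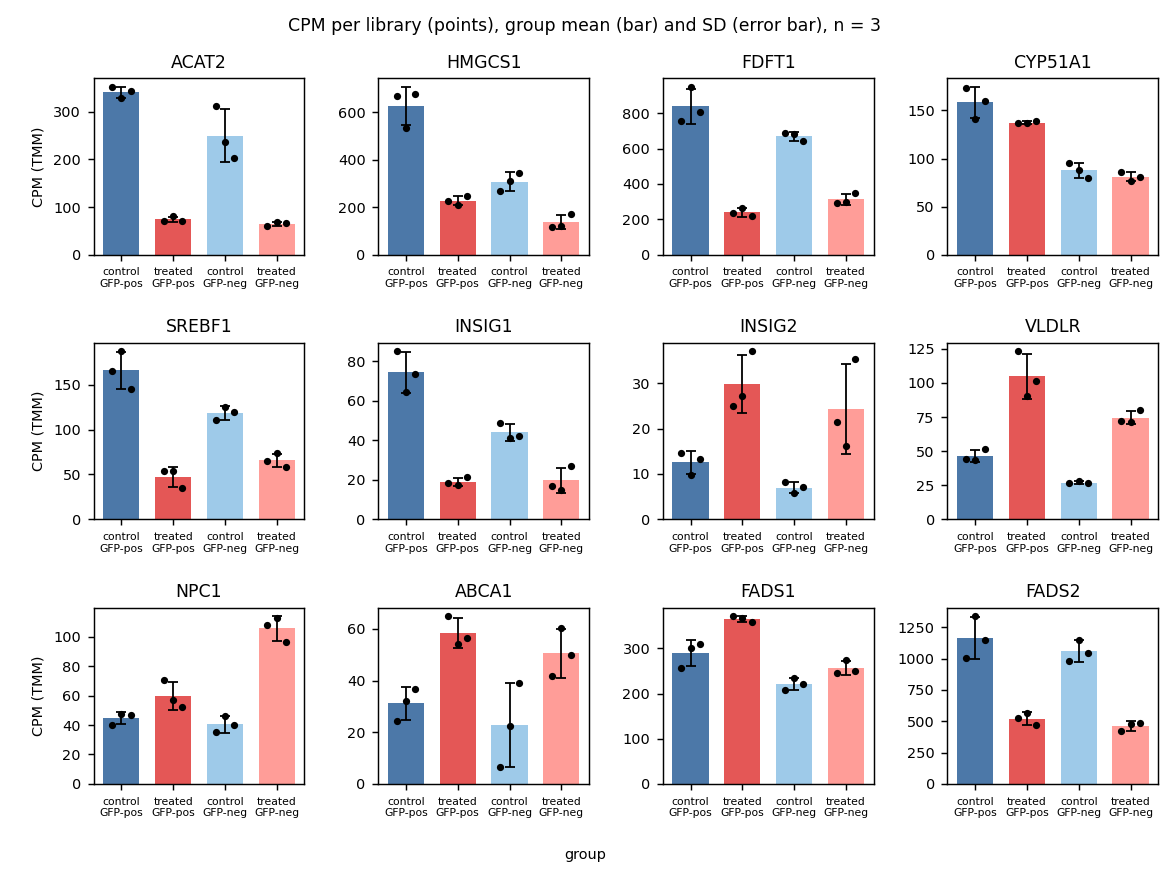
CPM of 12 members in each library (points), with the group mean (bar) and SD (error bar), n = 3 per group; each panel has its own vertical axis from 0. ACAT2, HMGCS1, FDFT1, SREBF1, INSIG1 and FADS2 were lower and INSIG2 and VLDLR higher in all treated libraries of both fractions, whereas CYP51A1 differed little between treated and control libraries and the GFP-negative controls of ABCA1 spread from 6.6 to 39.1 CPM.

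In fatty acid and lipid synthesis 5 of 9 members fell in GFP-positive cells, all 5 as DEGs, and 1 rose, with a median log2 fold change of -1.09. In GFP-negative cells 6 fell, 3 of them as DEGs, and 1 rose, with a median of -0.67. The 2 suppliers of cytosolic acetyl-CoA fell in both fractions. ACSS2, which makes it from acetate, had 105, 132 and 108 CPM in control and 33.2, 36.1 and 28.8 CPM in treated GFP-positive libraries (-1.74 ± 0.17, adjusted p = 1.84e-10), and 42.9, 46.7 and 49.6 CPM and then 28.8, 29.3 and 30.8 CPM in GFP-negative libraries (-0.67 ± 0.16, adjusted p = 0.0101). ACLY, which makes it from citrate, fell by 1.38 and 0.93. The GFP-negative fall of ACSS2 did not pass without control replicate 2 or treated replicate 1 (adjusted p = 0.0565 and 0.0618).

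FASN, the fatty acid synthase, had 1870, 2794 and 2230 CPM in control and 1096, 1021 and 838 CPM in treated GFP-positive libraries, and 1452, 2229 and 2076 CPM and then 810, 1014 and 905 CPM in GFP-negative libraries. The treated libraries were below all controls of their fraction (-1.15 ± 0.17, adjusted p = 6.03e-07, and -1.10 ± 0.18, adjusted p = 0.00175). SCD, which puts the first double bond into saturated acyl chains, fell by 1.20 and 1.10. FADS2 and FADS1 are neighbouring desaturases that act in turn on polyunsaturated fatty acids, and they differed. FADS2 had 1004, 1341 and 1152 CPM in control and 527, 567 and 466 CPM in treated GFP-positive libraries, and 982, 1152 and 1042 CPM and then 419, 480 and 489 CPM in GFP-negative libraries, falls of 1.09 and 1.22. FADS1 had 256, 302 and 310 CPM and then 371, 366 and 358 CPM in GFP-positive cells, a rise of 0.41 (SE 0.15, adjusted p = 0.0259), and did not pass in GFP-negative cells (0.19, adjusted p = 0.339).

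ELOVL6, an elongase, did not pass in GFP-positive cells (-0.16, adjusted p = 0.452; -0.52 and adjusted p = 0.00684 with the GC trend removed) and fell by 0.53 in GFP-negative cells (adjusted p = 0.0238), where leaving out any library but control replicate 1 ended the call (adjusted p up to 0.08). LPIN1, a phosphatidate phosphatase of lipid synthesis, did not pass in GFP-positive cells (0.31, adjusted p = 0.134) and rose by 0.66 in GFP-negative cells, from 13.7, 16.7 and 18.5 CPM to 26.7, 27.4 and 24.5 CPM (adjusted p = 0.0231). ACACA, the acetyl-CoA carboxylase, was measured at only 1.58 to 4.36 CPM over all 12 libraries and passed in neither fraction (-0.52 and -0.51).

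In GFP-positive cells the falls of FASN and FADS2 were -0.99 each without control replicate 2, just under 2-fold, and with the GC trend removed they were -0.70 and -0.81 (-0.83 for FASN in GFP-negative cells, where it was -0.98 without control replicate 2). FADS1 did not pass there once control replicate 1 was left out (adjusted p = 0.149), nor with replicate 1 or 2 of the treated libraries left out (0.0914 and 0.071). In GFP-negative cells LPIN1 did not pass with control replicate 2 left out (adjusted p = 0.0868), nor with replicate 1 or 2 of the treated libraries left out (0.117 and 0.0633).

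Of the 22 members that were downregulated DEGs in GFP-positive cells 13 were so in GFP-negative cells too, which is 59.1% of the former and 100% of the latter. These were ACAT2, HMGCS1, MVK, FDPS, FDFT1, TM7SF2, HSD17B7, EBP, DHCR7, INSIG1, FASN, SCD and FADS2. The share of DEGs common to both fractions was not counted over all genes, so these percentages have no background beside them. Without the 2-fold minimum, 18 members fell and 3 rose in both fractions at an adjusted p under 0.05. All 39 had the same sign of log2 fold change in both. These shared calls and signs were not counted over all genes either, so they too have no background beside them. INSIG2 and VLDLR were upregulated DEGs in both fractions, ABCG1 in GFP-positive and NPC1 in GFP-negative cells.

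Whether the response differed between the fractions was tested directly by an interaction term over all 12 libraries. The difference is the log2 response in GFP-positive cells minus that in GFP-negative cells. A larger fall or a smaller rise in GFP-positive cells makes it negative. At an adjusted p under 0.05 it was negative for 2 members and positive for 0, against 1.22% and 0.968% of all genes. At an unadjusted p under 0.05 there were 12 and 0, against 9.74% and 6.91% of all genes, and DESeq2 gave 6 and 0 at its own adjusted p, against 2.33% and 2.53%. ACSS2 had a difference of -1.16 ± 0.21 (adjusted p = 0.00995), a larger fall in GFP-positive cells, and NPC1 one of -0.96 ± 0.23 (adjusted p = 0.0389), a smaller rise in GFP-positive cells. The next smallest adjusted p were those of SREBF1 (-0.95 ± 0.25, adjusted p = 0.0584), FDFT1 (-0.70 ± 0.19, adjusted p = 0.0708) and STARD4 (-1.12 ± 0.32, adjusted p = 0.0871). A culture block takes libraries of the same number and treatment as sorts of 1 culture, which the labels do not state outright. With it SREBF1, FDFT1 and STARD4 passed (adjusted p = 0.00578, 0.0344 and 0.00925). They were among 8 members with a negative and 0 with a positive difference, against 4.59% and 3.2% of all genes. The median difference was -0.37 over the members and -0.05 over all genes, and scaling by library size alone moved the latter to 0.20. Under that scaling ACSS2 had a difference of -0.89 (adjusted p = 0.041) and NPC1 of -0.70 (adjusted p = 0.161). The calls over all genes were then 266 positive and 84 negative in place of 157 and 198.

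Control GFP-positive and control GFP-negative libraries were compared to describe what the sort separated. In these untreated cultures 16 members were higher in GFP-positive cells and 1 was lower, against 17.1% and 23.1% of all genes, and 3 and 1 were so as DEGs, against 7.47% and 15.3%. This fit left out any pairing of libraries by number. With a replicate block 21 members were higher and 1 lower, against 23.9% and 27.7% of all genes. The members' median log2 difference was 0.41, and that of all genes -0.02. The 3 GFP-positive libraries lay outside the range of the 3 GFP-negative ones for 24 members, 23 above and 1 below (61.5%, against 53.3% of all genes). LPIN1 was at 54.3, 42.0 and 43.5 CPM in GFP-positive and 13.7, 16.7 and 18.5 CPM in GFP-negative controls (1.40 ± 0.19, adjusted p = 0.000319). ACSS2 was 1.19 higher (adjusted p = 0.000202) and STARD4 1.01 higher (adjusted p = 0.00592; 0.80 and under 2-fold without GFP-negative replicate 1). NPC2 was the member lower in GFP-positive cells, at 18.8, 19.8 and 17.6 CPM against 57.7, 40.3 and 33.8 CPM (-1.34 ± 0.21, adjusted p = 0.000588).

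By role, 7 of 18 sterol enzymes, 3 of 5 regulators, 2 of 7 genes of uptake, trafficking and efflux and 4 of 9 of fatty acid and lipid synthesis were higher in control GFP-positive cells. HMGCS1 was 0.91 higher, SREBF2 0.81, CYP51A1 0.74 and VLDLR 0.67, while FDPS (-0.09), NSDHL (-0.10), SCAP (0.02) and FADS2 (0.03) did not pass. Leaving out 1 library moved the 16 to between 10 (without GFP-positive replicate 1) and 19 (without GFP-negative replicate 1), and to 11 without GFP-negative replicate 2. Leaving out GFP-negative replicate 3 raised the DEGs higher in GFP-positive cells from 3 to 6. The comparisons by sort fraction and by treatment share the control libraries, so their values are given side by side and not set against each other.

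**Figure D4:**
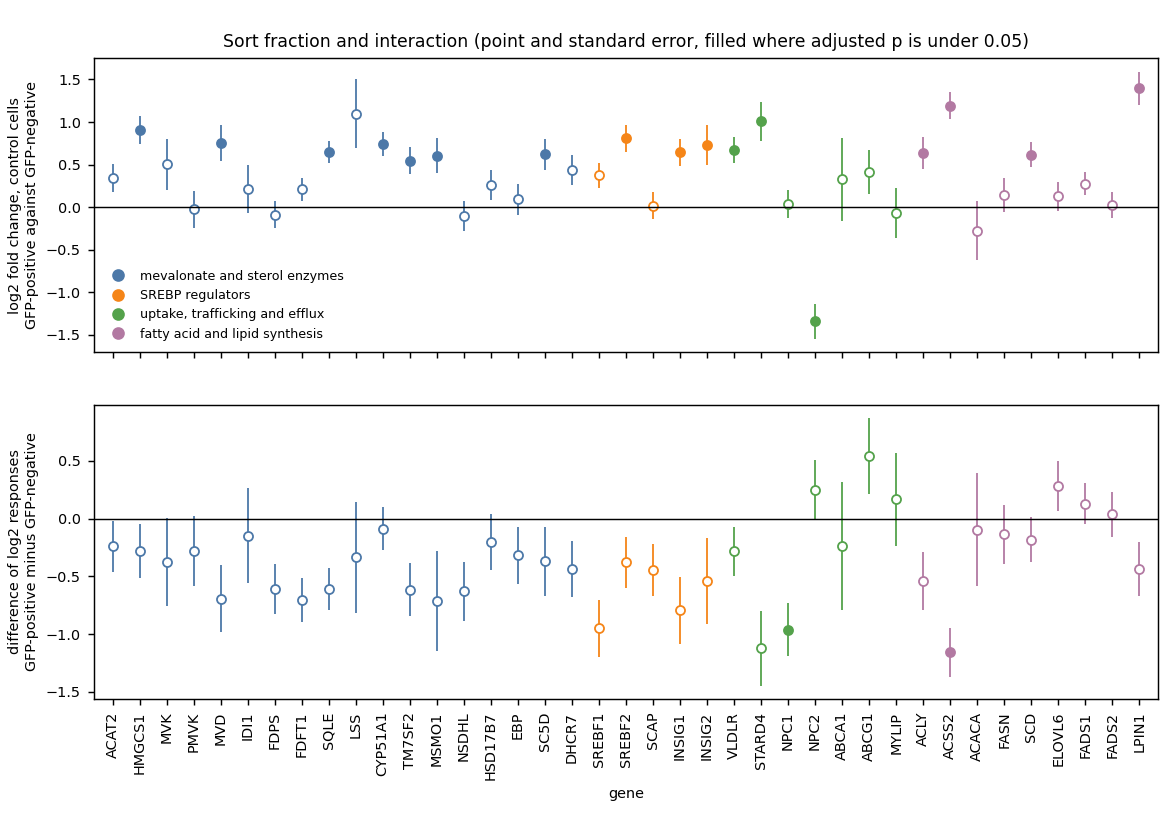
For each gene (horizontal axis, coloured by role), the log2 difference between control GFP-positive and control GFP-negative cells (upper panel) and the difference of the log2 responses, GFP-positive minus GFP-negative (lower panel), with standard errors. Filled points have an adjusted p under 0.05; NPC2 was the member that was lower in control GFP-positive cells, and ACSS2 and NPC1 were the filled points of the lower panel.

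Lists of neighbouring pathways were counted in the same way, beside the 26.5% of all genes that rose and 24.4% that fell in GFP-positive cells. In GFP-positive cells 4 of 14 genes of SREBP processing and INSIG turnover rose and 0 fell, among them PAQR3, which tethers SCAP and SREBP to the Golgi (19.8, 23.8 and 27.0 CPM to 116, 114 and 138 CPM, log2 fold change 2.46, adjusted p = 1.03e-13), and HM13, the signal peptide peptidase (1.62). Of 15 genes of the isoprenoid branches 5 rose and 1 fell. NUS1, a subunit of the prenyltransferase that makes dolichol, rose by 1.89, and RABGGTB, a subunit of the Rab geranylgeranyl transferase, by 1.52. Of 10 tested genes of other sterol metabolism 1 rose and 3 fell, with TMEM97, a sterol-responsive membrane protein, at -1.79 (151, 151 and 123 CPM to 35.5, 41.5 and 39.6 CPM) and ERG28, a scaffold of sterol enzymes, at -1.43. Both fell in GFP-negative cells as well (-1.59 and -1.06).

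Among 19 tested genes of other fatty acid elongation, desaturation and activation 10 rose and 4 fell in GFP-positive cells, with FADS3 at 1.35, HACD2 at 1.04 and SCD5, a second stearoyl-CoA desaturase, at -1.37. In glycerolipid synthesis 9 of 20 rose and 4 fell. GPAT3, a glycerol phosphate acyltransferase, went from 0.224, 0.0872 and 0.193 CPM to 9.79, 6.92 and 12.0 CPM in GFP-positive cells (log2 fold change 5.91), where no control library held more than 6 counts. In GFP-negative cells GPAT3 went from 1.74, 0.94 and 1.07 CPM to 36.5, 33.9 and 37.1 CPM (4.81, adjusted p = 8.69e-06). AGPAT5 rose by 1.62, while LPIN3 (-1.11) and PCYT1B (-1.64) fell. In other sterol transport 7 of 23 rose and 9 fell, with ABCA5 at 1.88, STARD5 at 1.57 and OSBPL5 at -1.65. The median log2 fold changes of these 6 lists in GFP-positive cells were 0.25, 0.26, -0.22, 0.46, 0.26 and -0.22 in the order given, beside 0.03 for all genes.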

How the data were processed

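RNA-seq counts of 12 libraries, 3 in each of 4 groups, were analysed. The authors mapped single-end reads, described as reverse-stranded, to hg38 with HISAT2, and the submitters' processing notes also name featureCounts and GRCh38. Tool versions and the strand setting of the counting are not given in the sources used here, so reads of a gene and an overlapping antisense gene may be mixed, as could be the case for HMGCS1, FDPS, ACAT2 and IDI1. FDPS, IDI1, HSD17B7, CYP51A1 and SCD have annotated pseudogenes that could share their reads. The deposited values are whole-number counts per gene symbol, without normalization, and were used as such, with 0 per-sample columns unused.

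Counts were tested with edgeR 4.0.16 in R 4.3.3 (TMM scaling, filterByExpr with a minimum count of 10 and a minimum total of 15, quasi-likelihood F-test, Benjamini-Hochberg adjustment over all genes tested, two-sided). A DEG changed at least 2-fold at an adjusted p under 0.05, and the interaction had no minimum. CPM are TMM-scaled over all 12 libraries, and ± after a log2 fold change is its standard error. With 3 libraries per group the smallest p of an exact permutation test is 0.1, so no such test was made, and p-values measure the spread between these thaws. The fits were tested on simulated data.

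The members and lists were chosen with earlier results of these data known. All 39 members were named. From each neighbouring list, the text named up to 2 genes with the largest rise and 2 with the largest fall among DEGs of GFP-positive cells that averaged 1 CPM or more and whose groups did not overlap. Of the genes picked by this rule, 1 is not reported here. SPRING1 was matched by its older symbol, C12orf49.

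Alternatives were DESeq2 1.42.0, RLE scaling, scaling by library size alone, omission of the filter, a minimum of 10 counts in all libraries, 1 fit of all 12 libraries, glmTreat, a replicate block, a culture block, removal of a GC trend (loess, span 0.5) and each library left out in turn. The culture block takes GFP-positive and GFP-negative libraries of the same number and treatment as sorts of 1 culture, which the labels do not state outright.

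Positions and exon lengths came from GENCODE release 44, an annotation other than the authors', and 26182 of 28278 symbols were matched. Promoters came from RefSeq (GRCh38.p14). Figures were drawn with matplotlib 3.10.9.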

Additional observations from a re-analysis of the deposited data

Results flagged for a closer look

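The response to cis-chlordane differed between the sort fractions for 2 of the 39 members by a direct test of the difference. ACSS2, which makes cytosolic acetyl-CoA from acetate, had a log2 response that was lower by 1.16 in GFP-positive than in GFP-negative cells (interaction -1.16, standard error 0.21, edgeR adjusted p = 0.00995), with a fall of 1.74 in GFP-positive and 0.67 in GFP-negative cells. NPC1 had an interaction of -0.96 (standard error 0.23, edgeR adjusted p = 0.0389), with a rise of 0.49 in GFP-positive and 1.36 in GFP-negative cells. All 3 treated GFP-positive libraries of ACSS2 were below the controls of their fraction, and all 3 treated GFP-negative libraries were below theirs. For NPC1 all treated libraries were above the controls in both fractions. ACSS2 did not pass without treated GFP-positive replicate 1 (-1.01, adjusted p = 0.0642) or replicate 3 (-0.91, adjusted p = 0.0571). NPC1 did not pass when any 1 of the 12 libraries was left out, with adjusted p from 0.0511 to 0.19. The 2 treated fractions also differed in the summed motor neuron and cycling markers given above, and the part of these in the 2 differences was not tested.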

How the results depend on the processing

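Among the members, 20 of 25 DEG calls in GFP-positive cells, 10 of 16 in GFP-negative cells and 3 of 4 by sort fraction were the same under every alternative but glmTreat, as were 0 of the 2 interaction calls. glmTreat, which asks that the change exceed 2-fold, left 13 downregulated and 0 upregulated members in GFP-positive cells, 1 and 1 in GFP-negative cells, and 0 higher and 0 lower by sort fraction. Over all genes it left 728 downregulated and 920 upregulated of 15333 in GFP-positive cells, and 366 and 446 of 15513 in GFP-negative cells. By sort fraction it left 295 higher and 1408 lower of 15404. With the GC trend removed, 1 member was an upregulated DEG in GFP-positive cells, against 1596 of 15333 genes. With it removed 6 members were higher DEGs in control GFP-positive cells, against 1719 of 15404 genes. A single fit of all 12 libraries gave 5 of the latter, against 1512 of 16226 genes. Members with a negative interaction difference numbered 6 with DESeq2, 1 with RLE scaling and 1 with library size alone. There was 1 with at least 10 counts in every library, 4 with a replicate block and 8 with a culture block. In the same order, the counts over all genes were 378, 145, 84, 105, 288 and 745. The genes tested were 13368 with at least 10 counts in every library and 16226 in the other settings. Leaving out 1 library at a time gave 20 to 22 downregulated and 3 to 4 upregulated members in GFP-positive cells, 12 to 14 and 3 to 4 in GFP-negative cells, 2 to 6 higher and 1 lower by sort fraction, and 0 to 2 by the interaction. Scaling by library size alone also ended the calls of PMVK, SCAP and MYLIP in GFP-positive and of LPIN1 in GFP-negative cells. The causes of these shifts were not tested.

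Treated and control libraries share replicate numbers. The correlation of their departures from the group means was -0.017, 0.098 and 0.13 in GFP-positive and -0.05, 0.28 and 0.032 in GFP-negative cells. With 3 libraries per group these values cannot tell whether the number marks a pairing there. A replicate block changed no count of treatment DEGs among the members by more than 1.5 times. GFP-positive and GFP-negative libraries share numbers too, and across 16187 genes, which are not independent replicates, the correlation was 0.28, 0.087 and 0.21 for the control pairs and 0.16, 0.21 and 0.36 for the treated pairs. Each library correlated best with its own number in the other fraction, a hint from the data. Sorting each culture by FACS would give such pairs, though the labels do not state outright that equal numbers mark 1 culture. The main tests by sort fraction and by interaction left this pairing out. With the replicate block 21 members were higher and 1 lower in control GFP-positive cells, against 23.9% and 27.7% of all genes. With the culture block 8 members had a negative and 0 a positive interaction difference, against 4.59% and 3.2%. ACACA, ABCG1 and MYLIP had standard errors of 0.31, 0.22 and 0.23 in GFP-positive cells.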
